A study of Mus musculus with 4 samples.

Results

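The enzymes that write, remove and read 5-methylcytosine were examined in mouse cells undergoing reprogramming. They were taken as the rows of the deposited expression table named Dnmt1, Dnmt3a, Dnmt3b, Dnmt3l, Tet1, Tet2, Tet3, Tdg, Mbd2 and Mbd3. All 10 were found among the 22369 genes of the table. The samples were 4 RNA sequencing libraries from OG2MEF cells, mouse embryonic fibroblasts with a green fluorescent reporter driven by Oct4, collected on day 9. In 2 libraries the construct was labelled SOX17 WT and in 2 it was labelled SOX17-V118M, a missense form of this endodermal transcription factor. Per the protocol, retroviruses also carried Sox2 and Klf4, and all cultures received medium with LIF and vitamin C. The protocol further lists OCT4 and GFP viruses, and it does not say which mixture each library received. No untransduced, GFP or OCT4 library was analysed here, so the values have no background from uninfected fibroblasts. The comparison asks how the V118M change alters expression during reprogramming.

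DNA methyltransferases place methyl groups on cytosines of CpG dinucleotides. Dnmt1 copies the pattern to the daughter strand after replication, and Dnmt3a and Dnmt3b set new marks, aided in germ cells and early embryos by the catalytically inactive Dnmt3l. TET dioxygenases oxidize 5-methylcytosine, with iron and 2-oxoglutarate as cofactors, and vitamin C promotes their activity. The glycosylase Tdg excises the most oxidized forms, base excision repair then restores cytosine, and Mbd2 and Mbd3 belong to alternative forms of the NuRD deacetylase and remodelling complex. Erasure of methylation at pluripotency gene promoters is a known step of reprogramming, and Dnmt3b, Dnmt3l and Tet1 are typical of pluripotent cells.

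The deposited values are whole-number scores made nearly equal in distribution between libraries, with totals between 12855482 and 12859613. Sequencing depth is therefore unknown, and no counting interval can be given. V118M replicate 2 was unlike the rest: over the 12661 genes whose mean log2(score + 1) was at least 5, it correlated with them at a Pearson r of 0.954 to 0.964, and they with each other at 0.986 to 0.990. Its difference from the mean of the other 3 also followed transcript length, with Spearman's rho of -0.581 across genes, which are not independent replicates. The median difference was 0.38 in log2 units for genes in the shortest of 4 length classes of near-equal size (up to 2084 bases) and -0.33 for the longest class (4764 bases and more). In wild-type replicate 1 and V118M replicate 1 the same rho was 0.489 and 0.485, and in wild-type replicate 2 it was 0.106. Each of these was set against a mean that includes V118M replicate 2. Results that rest on V118M replicate 2 are given with it and without it. Fibroblast markers were high. Of the 8, 3 were lower in V118M, Col1a2 was tied at 29492 in all 4 libraries, and the others were higher. Their summed scores were 120799 and 118930 in wild type, versus 122943 and 95202 with V118M. Col3a1 was at 61186, the largest score of any gene, in 3 libraries and at 29496 in V118M replicate 2. Without Col3a1 the sums were 59613 and 57744 against 61757 and 65706. Of 8 markers of pluripotent cells Tdgf1 (83 to 188), Fgf4 (66 to 72) and Utf1 (10 to 38) had the highest scores, while Nanog lay between 1 and 8 and Dppa4 was at 0 in all 4 libraries. Summed scores of 7 leukocyte markers were 713 and 758 in wild type, versus 600 and 542 with V118M, and those of 6 epithelial markers 13968 and 14150 against 13327 and 12945. Sox17 itself scored 3484 and 2880 in wild type, and 3016 and 2396 in the V118M cultures.

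No difference between V118M and wild type in the 10 genes exceeded the spread between libraries by the test used. In the limma fit over 19547 genes, 0 of the 10 passed an adjusted p of 0.05, and 0 had an unadjusted p under 0.05. Over all genes tested these shares were 0.0% and 4.01%. The adjusted p of the 10 ran from 0.951 to 0.970 (limma). The median log2 fold change, V118M minus wild type, was -0.002 for the 10 and 0.0 for all genes, with 5 of the 10 positive and 5 negative. The median size of the change, regardless of sign, was 0.14 for the 10 and 0.23 for all genes. The V118M libraries lay wholly above wild type for Tet1 and Mbd3, which is 2 of 10 where 13.2% of all genes did so. They lay wholly below for Tdg, 1 of 10 where 14.8% of all genes did so. With 2 libraries a group, a two-sided exact permutation test of a single gene cannot go below p = 0.333.

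**Figure D1:**
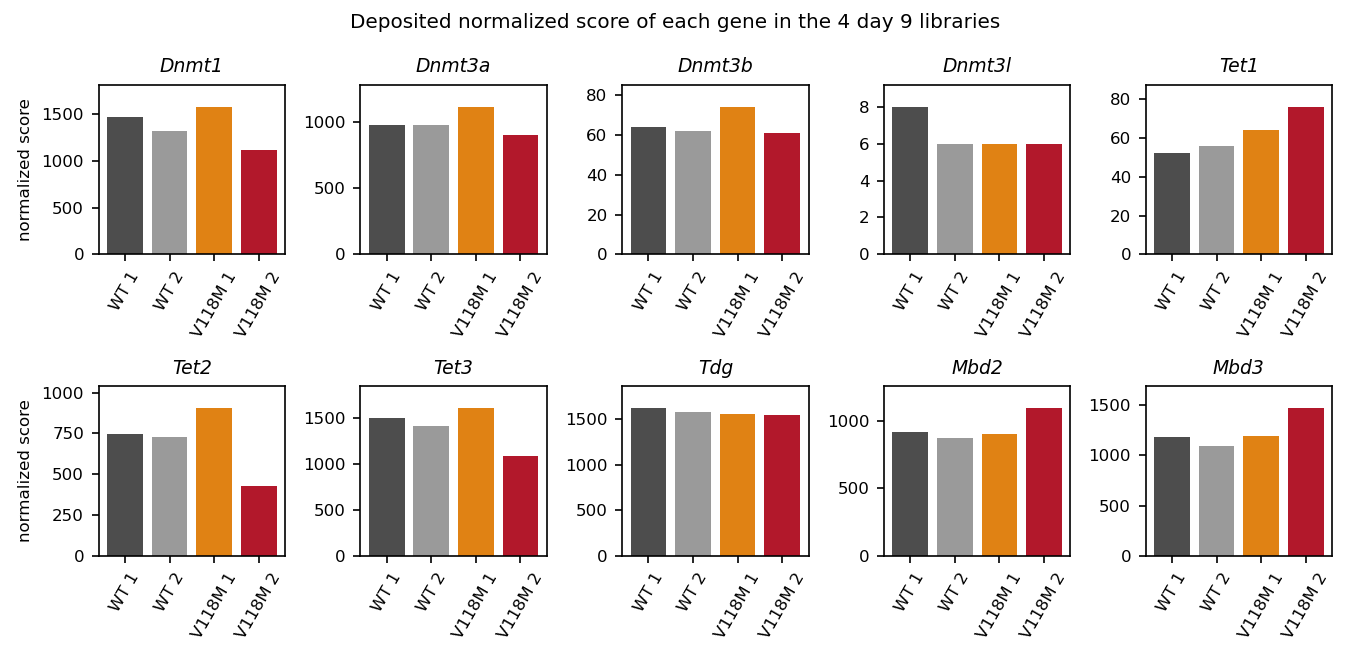
Normalized score (vertical axis, starting at 0, own scale per gene) of each of the 10 genes in wild-type replicates 1 and 2 (greys), V118M replicate 1 (orange) and V118M replicate 2 (red). The V118M bars stand on opposite sides of the wild-type bars for Dnmt1, Dnmt3a, Dnmt3b, Tet2 and Tet3, and both stand above them for Tet1 and Mbd3.

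The main pattern was a split between the V118M libraries. In 5 of the 10 genes, Dnmt1, Dnmt3a, Dnmt3b, Tet2 and Tet3, V118M replicate 1 was above both wild-type libraries and V118M replicate 2 below both. Over all genes tested, 10.7% had this arrangement. The V118M replicates lay further apart than the wild-type replicates in 8 of the 10 genes, and in 71.6% of all genes. The median gap between replicates, in log2 units, was 0.08 in wild type and 0.29 in V118M for the 10 genes, against 0.17 and 0.44 for all genes tested.

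Among the writers, Dnmt1, the maintenance methyltransferase (ENSMUSG00000004099, GRCm38 chromosome 9, 20907209 to 20959888, minus strand), scored 1474 and 1318 in wild type. It scored 1582 and 1114 in V118M replicates 1 and 2, so the groups overlapped. The log2 fold change was -0.07 (standard error 0.21, limma adjusted p = 0.963). Without V118M replicate 2 the change was 0.18, and without V118M replicate 1 it was -0.32.

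Dnmt3a, a de novo methyltransferase of somatic and embryonic cells (ENSMUSG00000020661, chromosome 12, 3806007 to 3914443, plus strand), was tied at 974 in both wild-type libraries. V118M replicate 1 was higher at 1116 and replicate 2 lower at 901, so neither direction was shared. The log2 fold change was 0.04 (standard error 0.17, limma adjusted p = 0.970). It was 0.20 without V118M replicate 2 (limma adjusted p = 0.319) and -0.11 without V118M replicate 1 (limma adjusted p = 0.128). Those fits hold a lone V118M library that is assumed to vary like wild type. In each of them Dnmt3a and Tet2, 2 of the 10, had an unadjusted p under 0.05, with opposite signs between the fits, and so did 12.0% of all genes with replicate 2 dropped and 26.8% with replicate 1 dropped. The antisense gene Dnmt3aos, which has no row under that name in the table, overlaps 133 exonic bases of Dnmt3a.

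Dnmt3b, the de novo enzyme that is abundant in pluripotent cells (ENSMUSG00000027478, chromosome 2, 153649450 to 153687730, plus strand), scored 64 and 62 in wild type. It scored 74 and 61 in V118M. Replicate 2 thus differed from the lower wild-type library by a single unit, and the log2 fold change was 0.09 (standard error 0.25, limma adjusted p = 0.961). Dropping V118M replicate 2 gave 0.23 and dropping V118M replicate 1 gave -0.05. Of its 50-base stretches, 11.5% were shared with Dnmt3c, a duplicate that acts in male germ cells and has no row under that name in the table. The sources used here do not give how such reads were assigned, so the Dnmt3b score is uncertain to that extent.

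Dnmt3l, the inactive cofactor (ENSMUSG00000000730, chromosome 10, 78041947 to 78063622, plus strand), was near the bottom of the scale. It scored 8 and 6 in wild type and 6 in each V118M library. No change is read from scores this low. It also shares 67 exonic bases with Aire on the opposite strand.

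Of the TET enzymes, Tet2, the dioxygenase often lost in blood cancers (ENSMUSG00000040943, chromosome 3, 133463679 to 133545139, minus strand), varied most. It scored 745 and 728 in wild type, 905 in V118M replicate 1 and 426 in V118M replicate 2. Replicate 1 was thus at 123% of the wild-type mean and replicate 2 at 57.8% of it. The log2 fold change over both was -0.25 (standard error 0.36, limma adjusted p = 0.951). Taken singly the V118M libraries gave opposite signs, 0.30 without replicate 2 (limma adjusted p = 0.361) and -0.79 without replicate 1 (limma adjusted p = 0.120). A stretch of 43 exonic bases is shared with Gm42567 on the opposite strand.

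Tet3, the dioxygenase of oocytes and neurons (ENSMUSG00000034832, chromosome 6, 83362373 to 83459084, minus strand), followed the same arrangement. Wild type scored 1496 and 1408, and V118M scored 1606 and 1087. The log2 fold change was -0.14 (standard error 0.22, limma adjusted p = 0.951). Without V118M replicate 2 it was 0.15, and without V118M replicate 1 it was -0.42.

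Tet1, the dioxygenase of embryonic stem cells (ENSMUSG00000047146, chromosome 10, 62804570 to 62908996, minus strand), scored higher in both V118M libraries. Wild type scored 52 and 56 and V118M scored 64 and 76, and the groups did not overlap. The log2 fold change of 0.36 had a standard error of 0.25, with an adjusted p of 0.951 in limma. It was positive with each library left out, with extremes of 0.24 when V118M replicate 2 was dropped and 0.49 when V118M replicate 1 was. The summed score of the 8 listed pluripotency markers was also higher in V118M, at 303 and 284 against 173 and 230, and 4 of the 5 tested markers were higher. Tdgf1 made up most of that difference, at 188 and 149 against 83 and 126, and without it the sums were 115 and 135 against 90 and 104. Fgf4 scored 66 and 72 against 72 and 70. In bulk RNA, more cells of a type and more RNA per cell cannot be told apart, and the part of such cells in the Tet1 values was not tested.

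Windows of 250 bases before RefSeq start sites (GRCm38.p6) were read for the members. Of the 10 genes 9 matched, with 15 windows. The windows of Tet2, Tet3 and Dnmt3b are shown because these genes shared the split between the V118M libraries, their RefSeq start lay within 3 bases of the start listed in the table, and the CpG dinucleotides are the substrate of the enzymes described here. The nearest Dnmt1 window meets the same terms but overlaps an annotated exon of Dnmt1, so its letters are not shown. They are written 5′ to 3′ on the gene's own strand with CpG dinucleotides in capitals. The Tet2 window is chr3:133544391-133544640 (minus strand), that of Tet3 is chr6:83441679-83441928 (minus strand) and that of Dnmt3b is chr2:153649199-153649448 (plus strand).
Tet2: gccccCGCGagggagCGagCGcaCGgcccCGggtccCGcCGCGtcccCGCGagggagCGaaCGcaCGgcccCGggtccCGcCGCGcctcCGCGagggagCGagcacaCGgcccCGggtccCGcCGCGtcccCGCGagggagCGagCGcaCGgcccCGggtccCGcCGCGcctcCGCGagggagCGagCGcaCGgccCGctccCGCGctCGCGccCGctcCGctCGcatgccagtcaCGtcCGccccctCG
Tet3: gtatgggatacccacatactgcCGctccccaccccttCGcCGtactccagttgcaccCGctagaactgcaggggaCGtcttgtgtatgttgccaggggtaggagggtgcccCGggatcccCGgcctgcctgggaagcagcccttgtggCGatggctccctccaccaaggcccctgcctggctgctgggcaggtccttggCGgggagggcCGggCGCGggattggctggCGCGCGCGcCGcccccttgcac
Dnmt3b: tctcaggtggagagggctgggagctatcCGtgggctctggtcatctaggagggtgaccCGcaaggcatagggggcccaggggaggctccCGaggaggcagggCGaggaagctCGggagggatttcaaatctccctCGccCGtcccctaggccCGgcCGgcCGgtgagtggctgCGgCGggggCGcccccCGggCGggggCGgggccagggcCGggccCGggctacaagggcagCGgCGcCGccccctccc

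The Tet2 window held 51 CpG dinucleotides, an observed over expected ratio of 1.19. Tet3 had 17 (ratio 0.56), Dnmt3b had 21 (ratio 0.61) and the nearest Dnmt1 window had 26 (ratio 0.89), where the median over 32851 windows of all genes was 6 (ratio 0.37). The Tet2 window is internally repetitive, with a run of 10 bases present 5 times, which 4.27% of all windows matched or exceeded. An exon of the non-coding gene B230319C09Rik, on the opposite strand, reaches into the Tet3 window. The compressed SOX/OCT element named in the series' description, CATTGTATGCAAAT, was in 0 of all windows. This and the other motifs were searched on both strands. Its SOX part CATTGT was in 10.7% of all windows and its octamer part ATGCAAAT in 1.6%, and neither was in any of the 15. The GC box GGGCGG, in 32.7% of all windows, occurred at 1 position for Tet2, 1 for Tet3, 3 for Dnmt3b and 2 for Dnmt1. The E2F cores TTGGCGC (2.0% of all windows) and TTCCCGC (3.8%) were in none of the 15. These are matches of letters in a short window only.

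**Figure D2:**
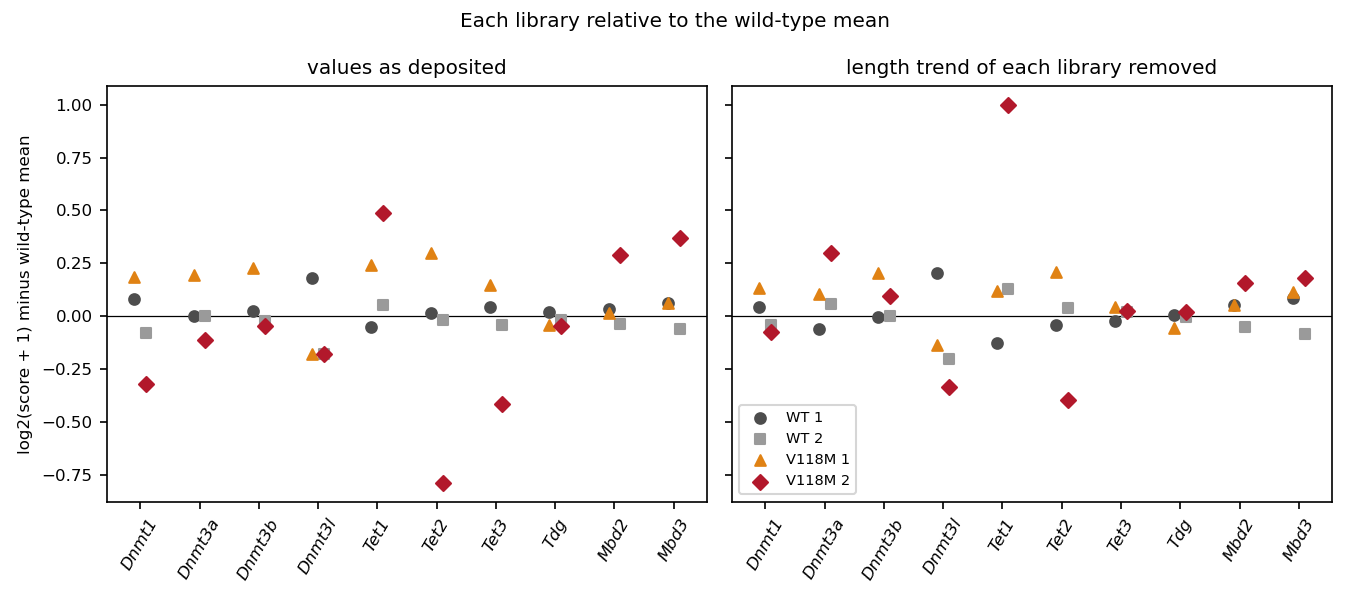
Each library's log2(score + 1) minus the wild-type mean (vertical axis) for the 10 genes, from the deposited values (left) and after each library's trend on transcript length was removed (right). On the left V118M replicate 2 (red diamonds) is lowest for Tet2 at -0.79 and highest for Tet1 at 0.49, and on the right Tet2 is at -0.40, Tet3 at 0.03 and Tet1 at 1.00.

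Tdg, the glycosylase that acts in TET-dependent demethylation (ENSMUSG00000034674, chromosome 10, 82629828 to 82650799, plus strand), varied least of the 10. Wild type scored 1621 and 1580 and V118M scored 1552 and 1548. All libraries lay close together, with the V118M pair just below the wild-type pair, and the log2 fold change was -0.05 (standard error 0.14, limma adjusted p = 0.963), or -0.04 without V118M replicate 2. Of its 50-base stretches 66.3% occurred in transcripts of other genes, chiefly the pseudogene Tdg-ps, and 367 of its exonic bases overlap Glt8d2 on the opposite strand. Its score is therefore uncertain where reads could be shared, and the use of strand in counting is not stated.

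The readers had their higher scores in V118M replicate 2. Mbd2, which binds methylated CpG and recruits NuRD (ENSMUSG00000024513, chromosome 18, 70568189 to 70626131, plus strand), scored 916 and 873 in wild type, versus 904 and 1092 with V118M. The groups overlapped, and the log2 fold change was 0.15 (standard error 0.16, limma adjusted p = 0.951), or 0.02 without V118M replicate 2.

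Mbd3, the NuRD subunit that binds methylated DNA only weakly and has been studied as a barrier to reprogramming (ENSMUSG00000035478, chromosome 10, 80392539 to 80399550, minus strand), scored 1186 and 1092 in wild type. V118M scored 1189 and 1470, so the lower V118M library exceeded the higher wild-type library by 3 units. The log2 fold change was 0.22 (standard error 0.17, limma adjusted p = 0.951), or 0.06 without V118M replicate 2.

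The direction of V118M replicate 2 followed transcript length for most of these genes. Mbd3 and Mbd2, with transcripts of 1662 and 1953 bases, were 0.35 and 0.28 log2 units above the mean of the other 3 libraries. Dnmt1 (5870 bases), Tet2 (9179 bases) and Tet3 (10904 bases) were at -0.38, -0.89 and -0.47. Dnmt3a (9685 bases), Dnmt3b (4320 bases) and Tdg (3502 bases) were closer to the other libraries, at -0.18, -0.12 and -0.03. Tet1 went the other way: it has the longest transcript of the 10, 14369 bases, and was at 0.41. Over 9 genes, Dnmt3l being left out for its low score, Spearman's rho between this difference and length was -0.317, and it was -0.881 over 8 without Tet1. These are descriptions of single libraries, and the genes share those libraries.

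**Figure D3:**
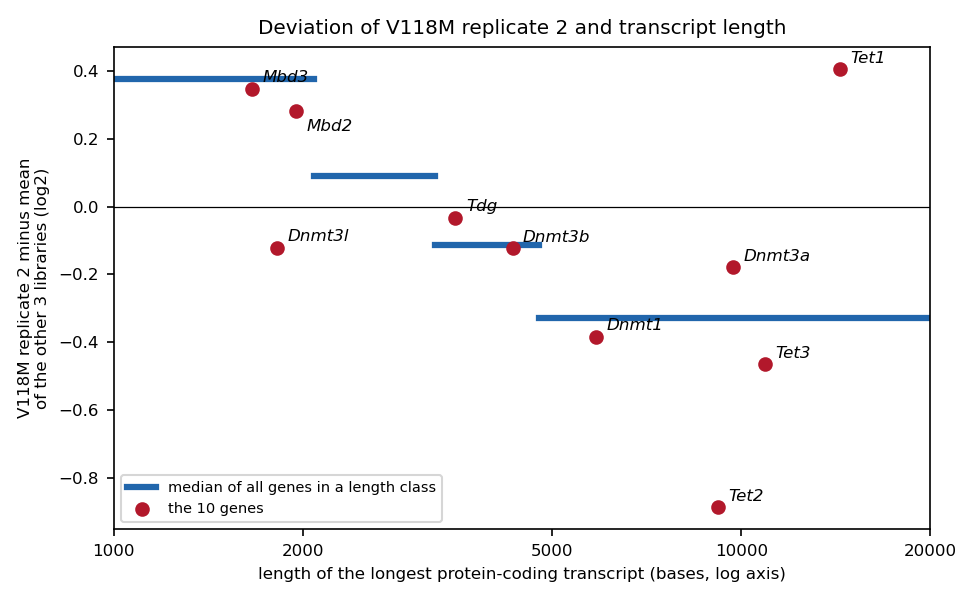
Log2 difference of V118M replicate 2 from the mean of the other 3 libraries (vertical axis) against the length of the longest protein-coding transcript (horizontal log axis) for the 10 genes (red points), with the medians of all genes in 4 length classes (blue bars, drawn only within the axis range). Tet2 differs from the median of its class by -0.56 and Tet1 by 0.73, and the differences of the other genes except Dnmt3l run from -0.14 for Tet3 to 0.15 for Dnmt3a.

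When a smooth trend on transcript length was removed from each library, the split arrangement remained in Dnmt1 and Tet2, 2 of the 10 genes, against 10.5% of all genes. The V118M groups then lay wholly above wild type in 5 genes, Dnmt3a, Dnmt3b, Tet3, Mbd2 and Mbd3, where 18.6% of all genes did so. For Mbd2 and Tet3 this was nearly a tie. Relative to the wild-type mean, Mbd2 was at 0.053 in V118M replicate 1 and 0.052 in wild-type replicate 1. Tet3 was at 0.026 in V118M replicate 2 and 0.021 in wild-type replicate 2. The groups of Tet1 then overlapped, with V118M replicate 1 at 0.12 above the wild-type mean and wild-type replicate 2 at 0.13. The log2 fold changes of Dnmt1 and Tet3 turned to 0.03 and 0.04, that of Dnmt3a was 0.20 and that of Tet1 was 0.56. None passed: the adjusted p in limma was 0.898 for Dnmt3a and Tet1. The removal was incomplete, since rho with length was still -0.146 for V118M replicate 2.

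Levels were ordered per length, as score per 1000 bases of the longest protein-coding transcript, with mean ± SD over the 4 libraries. Mbd3 was highest at 743 ± 98.4, followed by Mbd2 at 485 ± 50.6 and Tdg at 450 ± 9.61. Dnmt1 was at 234 ± 34.6, Tet3 at 128 ± 20.5, Dnmt3a at 102 ± 9.29 and Tet2 at 76.4 ± 21.8. Dnmt3b was at 15.1 ± 1.38, Tet1 at 4.31 ± 0.737 and Dnmt3l at 3.57 ± 0.549 (n = 4 each). Neighbours whose ranges over libraries overlapped were Mbd2 and Tdg, Tet3 and Dnmt3a, Dnmt3a and Tet2, and Tet1 and Dnmt3l. Among the genes of the table, Mbd3 stood between percentiles 93.7 and 94.9 of this measure and Tet1 between 32.4 and 35.6. Dnmt3a exceeded Dnmt3b by 6.59 to 7.01 times in every library. Tet2 exceeded Tet1 by 22.4 and 20.4 times in wild type and by 22.1 and 8.77 times in V118M, so this ratio was low in V118M replicate 2 only. Whether the submitters' scores were already scaled by length is not given, and across genes the scores rose only weakly with length (Spearman's rho 0.171). The transcripts listed in the table for Dnmt3a and Dnmt3l are annotated as non-coding forms (2 exons each), so the order assumes that the scores describe whole genes.

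**Figure D4:**
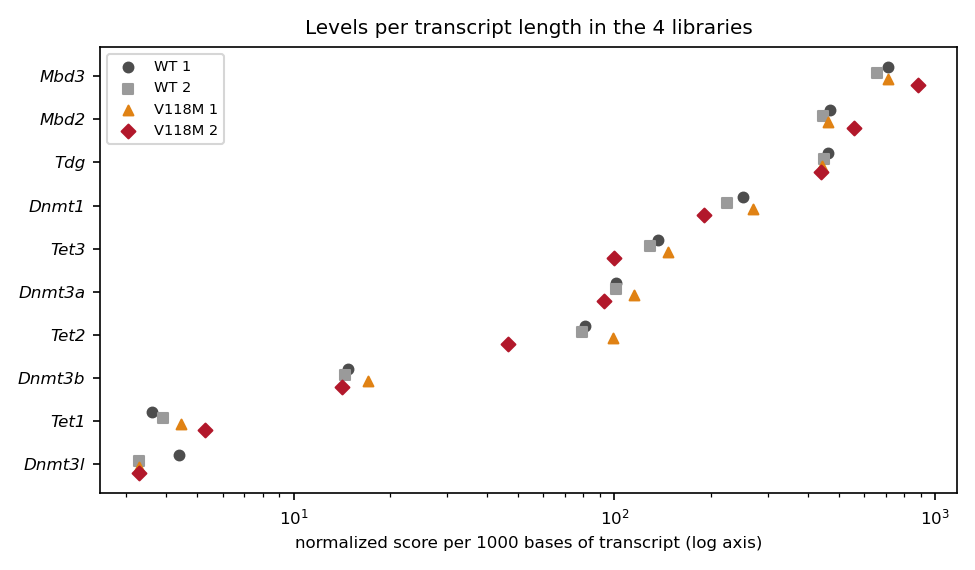
Normalized score per 1000 bases of transcript (horizontal log axis) for the 10 genes, ordered by their mean, in the 4 libraries. Mbd3, Mbd2 and Tdg are highest, and Dnmt3b, Tet1 and Dnmt3l lie below 20 in all 4 libraries.

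Genes that act with these enzymes were read from 8 lists, and 0 genes of any list passed an adjusted p of 0.05 in limma. Over all genes tested 50.0% had a log2 fold change above 0 and 48.9% below 0, and 4.01% had an unadjusted p under 0.05 (2.31% higher and 1.7% lower in V118M). Of 13 tested partners of maintenance and de novo methylation 9 were higher in V118M (median log2 fold change 0.13) and 1 had an unadjusted p under 0.05, against 4.01% of all genes. That gene was Cdca7, which works with the remodeller Hells. It scored 387 and 332 in wild type, versus 489 and 564 with V118M, a log2 fold change of 0.55 ± 0.17 (standard error, limma adjusted p = 0.951). Zfp57, which protects imprints, scored 79 and 90 against 104 and 141. Uhrf1, which brings Dnmt1 to hemimethylated DNA, was chosen after its values were seen and split as Dnmt1 did, at 967 and 758 against 1165 and 752. Its lower side was narrow, 752 in V118M replicate 2 against 758 in wild-type replicate 2, where Dnmt1 was at 1114 against 1318.

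The 20 S phase genes, read because Dnmt1 and Uhrf1 act at replication, were higher in 19 cases with a median of 0.30, where 50.0% of all genes were higher. An unadjusted p under 0.05 was found for 2 of the 20, Cdt1 and Mcm6, and for 4.01% of all genes. The latter, a helicase subunit named after its values were seen, scored 1167 and 1016 in wild type against 1453 and 1544. Cdt1, which licenses origins, scored 251 and 196 against 342 and 298. Mcm5, of the same helicase, scored 695 and 524 against 838 and 832. Relative to wild type the S phase list stood at 0.24 in V118M replicate 1 and 0.36 in replicate 2, where Dnmt1 was at 0.18 and -0.32.

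Other CpG readers were lower in 9 of 9 cases, with a median of -0.21, and 0 had an unadjusted p under 0.05 in limma. Leaving out V118M replicate 2 gave a median of -0.04, and leaving out V118M replicate 1 gave -0.41. With the length trend removed from all libraries the median was -0.16. Mbd4, a glycosylase for deaminated methylcytosine, scored 58 and 39 against 36 and 22. Mbd6, a relative that does not itself bind methylated DNA, scored 735 and 740 against 676 and 362. The 12 NuRD partners had a median of 0.08, with 7 higher and 5 lower. Rbbp7, a histone chaperone of the complex, scored 3037 and 3220 against 3079 and 5446, and the scaffold subunit Gatad2b scored 482 and 444 against 592 and 227.

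Genes that supply or regulate TET enzymes were lower in 11 of 14 tested cases, with a median of -0.24 and 0 at an unadjusted p under 0.05. Ogt, the glycosyltransferase that binds TET proteins, scored 7747 and 8712 in wild type, versus 6690 and 4554 with V118M (log2 fold change -0.57 with a standard error of 0.23, adjusted p = 0.951 in limma). Cxxc4, the CpG-binding partner of Tet2 known as Idax, scored 46 and 51 against 40 and 12. With V118M replicate 2 dropped the median was -0.15, and with V118M replicate 1 dropped it was -0.51. The median was -0.18 with the length trend removed from all libraries. Of 14 base excision repair genes 7 were lower, Ung was tied at 44 and 30 in both groups, and the others were higher. The median of the 14 was -0.01. Lig1, a DNA ligase of repair and replication, scored 706 and 653 against 860 and 1113 (log2 fold change 0.53, limma adjusted p = 0.951) and was the only one of the 14 with an unadjusted p under 0.05, against 4.01% of all genes. The glycosylase Neil1 scored 36 and 51 against 46 and 80. The methionine and S-adenosylmethionine cycle, source of the methyl group, had a median of 0.04 over 14 genes, with 8 higher and 6 lower. The phospholipid methyltransferase Pemt scored 35 and 50 against 44 and 92.

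Germline genes that promoter methylation normally keeps silent were higher in 8 of 10 tested cases, with a median of 0.72, and 2 of the 10 had an unadjusted p under 0.05, against 4.01% of all genes. These were Asz1, a piRNA pathway gene at 32 and 55 against 129 and 156 (log2 fold change 1.73 with a standard error of 0.33, adjusted p = 0.816 in limma), and Sycp3, named after its values were seen and listed at 0 in both wild-type libraries against 26 and 69. Slc25a31, a testis carrier of adenine nucleotides, scored 77 and 12 against 28 and 148. The median was 0.10 when V118M replicate 2 was dropped, 1.00 when V118M replicate 1 was, 0.37 when wild-type replicate 1 was and 0.19 when wild-type replicate 2 was. Several scores of this list were low, and the median depended on how low scores were handled. It was 0.49 with a pseudocount of 5, 0.39 with no filter and 1.05 with the filter at 10.

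**Figure D5:**
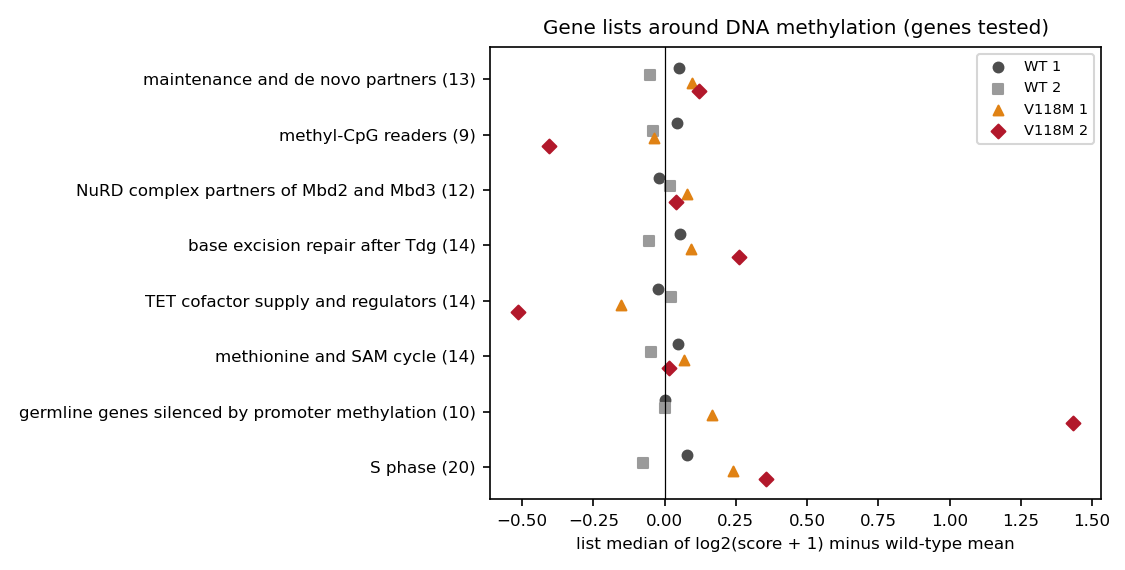
Median log2(score + 1) minus the wild-type mean (horizontal axis) of 8 gene lists in each of the 4 libraries, with the number of tested genes in brackets. The points farthest from 0 are those of V118M replicate 2 (red diamonds) for the germline list, the TET regulators and the readers, and both V118M libraries lie above wild type for the S phase, partner, NuRD, base excision repair and germline lists. The base excision repair list nevertheless had a median log2 fold change of -0.01. With the length trend removed, its V118M replicate 2 was at 0.014 and its wild-type replicate 1 at 0.042.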

How the data were processed

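Per the submitters' processing notes, FastQC, RSEM, Bowtie2, DESeq2 and mm10 were used, with no versions or roles. The deposited score of each gene is a whole number but not a raw count: at 76.7% of ranks all 4 sorted columns had an identical entry, which marks a quantile-type normalization by the authors that the sources used here do not describe. Shifts common to most genes therefore cannot be seen.

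Genes scoring at least 1 in at least 2 libraries (19547, with all 10 members) were tested on log2(score + 1) with limma 3.58.1 in R 4.3.3 (two-sided, trend and robust options, group as the only term), and p-values were adjusted over all of them by Benjamini-Hochberg. This scale understates changes of low genes. Nothing in the labels states separate cultures for replicates, so the p-values reflect variation among these libraries only, possibly technical. Coordinates and transcript lengths come from GENCODE M21 (GRCm38, also called mm10). Shared sequence was counted in stretches of 50 bases. The members and the 8 lists were chosen with earlier results of these data known. Besides members and Sox17, named genes are, per list, those passing and the 2 with the largest absolute change at a mean log2 score of at least 5; 1 gene so chosen is not reported here. Uhrf1, Mcm6, Sycp3 and the cell markers named fall outside this rule and were chosen after their values were seen. The fit and the loess removal of a trend on log2 length were tested on simulated data. Other alternatives were pseudocounts of 0.1 and 5, no filter or one at 10, the replicate number as a block, array weights, median centring and each library left out.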

Additional observations from a re-analysis of the deposited data

How the results depend on the processing

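None of the 10 genes passed an adjusted p of 0.05 under any of the 14 alternatives run. Tet1, Mbd2 and Mbd3 stayed positive and Tdg negative in all of them. Dnmt1 turned to 0.03 with the length trend removed, without or with the replicate block, and Tet3 to 0.04 in both. With the length of the listed transcript, an alternative chosen after seeing the data, they were 0.04 and 0.05. With each library left out in turn, log2 fold changes ran from -0.32 to 0.18 for Dnmt1, from -0.11 to 0.20 for Dnmt3a, from -0.05 to 0.23 for Dnmt3b, from -0.79 to 0.30 for Tet2 and from -0.42 to 0.15 for Tet3. The count of the 10 with an unadjusted p under 0.05 ran from 0 to 2, and their median from -0.08 to 0.16. List medians ran from 0.10 to 0.20 for methylation partners, from -0.41 to -0.04 for readers, from 0.04 to 0.10 for NuRD partners (0.11 with the listed transcript's length), from -0.06 to 0.26 for base excision repair and from -0.51 to -0.14 for TET regulators. Dnmt3l was not tested with scores of at least 10 required. In these changes the cause was not tested.

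The replicate numbers are shared between groups, but the labels tie them to no culture or day. Deviations of same-numbered libraries correlated at 0.303 across genes, which is a hint only. With the replicate block 3 of all genes passed, none of them among the 10, and 1 did with the length trend also removed. Genes with an unadjusted p under 0.05 numbered 1204 with the block and 784 without it. Depth is unknown, so what it limits cannot be stated.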
